A study of Mus musculus with 8 samples.

Results

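A set of 9 genes of the early nervous system was followed as loci outside the lineage of the sorted mesoderm: Sox1, Sox3, Zic1, Zic2, Pax6, Otx2, Six3, Ncam1 and Lhx2. An accessible region belonged to one of them when its midpoint lay inside the gene, or within 100 kb of it with no other protein-coding gene nearer. This gave 167 of the 168842 regions of the series. Ncam1 held 42 of them, Lhx2 25, Sox1 23, Pax6 and Otx2 18 each, Six3 16, Sox3 15, and Zic1 and Zic2 5 each. All 167 passed the filter on low values. Of these regions, 11 lay within 1 kb of an end of the gene, 62 lay farther inside and 94 outside.

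Accessibility was measured by ATAC-seq, which reads where the transposase Tn5 reaches the DNA, in embryoid bodies of mouse embryonic stem cells at day 4. Each of the 4 groups had 2 libraries. The wild-type line A2lox.Cre gave 2 groups, PDGFRalpha+FLK1+ cells (WT DP) and PDGFRalpha-FLK1+ cells (WT SP). The Etv2 knockout line gave PDGFRalpha+FLK1+ cells (KO DP). From the iETV2 line, given doxycycline at 2 µg/ml from day 2.5 to induce Etv2, came PDGFRalpha-FLK1+ cells (OE SP). Etv2 is an ETS transcription factor of the endothelial and blood lineages, Kdr encodes the VEGF receptor FLK1, and Pdgfra encodes PDGFRalpha, a growth factor receptor found on much of the early mesoderm. Each genotype is 1 stem cell line and doxycycline was labelled for iETV2 alone, so genotype, line and drug cannot be told apart. Whether replicate libraries were separate cultures is not labelled. The p-values then measure the spread between these libraries, which may be technical. The main fit pooled 1 spread per region over the 4 groups and used it in every comparison. Replicates correlated least in OE SP (0.937 on the log2 scale, against 0.975 to 0.978 elsewhere). The p-values of WT SP and KO DP against WT DP thus also carry the OE SP spread, and those of OE SP may understate it. Numbers called in different comparisons depend in part on this pooling.

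Sox1 and Sox3 are SOXB1 factors of neural progenitors, and Zic1 and Zic2 are zinc-finger factors of the neural plate and its border. Pax6, Otx2, Six3 and Lhx2 encode homeodomain factors that pattern the forebrain and the eye. Ncam1 encodes a cell adhesion molecule of neurons that some mesodermal tissues also make. The CpG-rich starts of such developmental genes are often accessible in cells that do not express them, whereas enhancers farther away tend to be open in fewer tissues.

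Promoter sequences of 6 of the 9 genes were found in RefSeq (build GRCm38.p6, the assembly of mm10), as 11 windows from 250 bases before to 50 after an annotated start. Of these windows, 8 overlapped an accessible region. The stretches before the start that lay in such a region are shown for 4 of them. Sox1 and the outer start of Pax6 gave near-equal signal in all groups, while the regions just before the inner start of Lhx2 and the innermost start of Otx2 lost signal in OE SP. Other inner starts, not shown, moved less. The region over another inner Otx2 start (from 48664800) went from 177 and 189 in WT SP to 136 and 125 in OE SP (log2 change -0.47, adjusted p = 0.0363 with limma). The region before an inner Pax6 start (from 105681967) changed by -0.21 (adjusted p = 0.390). Capitals mark CCGGAAG or CAGGAAG on either strand, letters found in many binding sites of ETS factors, the family of Etv2.
Sox1, chr8:12395312-12395518, plus strand: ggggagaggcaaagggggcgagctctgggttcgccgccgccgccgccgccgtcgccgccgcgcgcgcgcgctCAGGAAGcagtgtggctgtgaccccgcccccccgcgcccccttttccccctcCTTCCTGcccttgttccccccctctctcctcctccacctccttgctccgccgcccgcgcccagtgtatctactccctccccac
Pax6, outer start, chr2:105668646-105668895, plus strand: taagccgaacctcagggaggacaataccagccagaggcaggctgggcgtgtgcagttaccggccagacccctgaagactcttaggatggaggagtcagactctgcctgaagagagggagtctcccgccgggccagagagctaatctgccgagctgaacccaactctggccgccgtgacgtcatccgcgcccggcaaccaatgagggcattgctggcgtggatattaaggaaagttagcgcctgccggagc
Lhx2, inner start, chr2:38351058-38351195, plus strand: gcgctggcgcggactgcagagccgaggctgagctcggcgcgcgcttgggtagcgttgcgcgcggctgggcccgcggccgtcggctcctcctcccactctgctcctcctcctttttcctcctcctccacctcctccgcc
Otx2, inner start, chr14:48662803-48662984, minus strand: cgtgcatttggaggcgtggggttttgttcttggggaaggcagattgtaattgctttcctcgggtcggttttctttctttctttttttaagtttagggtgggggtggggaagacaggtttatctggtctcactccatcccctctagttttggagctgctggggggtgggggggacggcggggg
The Sox1 stretch held 2 matches to the ETS letters and the other 3 stretches held none. Among all 32851 promoter windows of the table, 20.9% held a match, as did 2 of the 11 windows of these genes. The stretches differed in base composition. G and C made up 74.4% of the Sox1 stretch with 23 CpG sites, 73.2% of the Lhx2 stretch with 17, 60.8% of the Pax6 stretch with 15 and 53.8% of the Otx2 stretch with 6. The 11 whole windows had a median of 16 CpG sites, against 7 over all windows. A match is a description of the letters and shows no binding.

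At 7 of the 9 genes an accessible region lay within 1 kb of a gene end. Signal is given as normalized reads, the deposited value of a region in 1 library. The region over the Sox1 start (chromosome 8 from 12395312 to 12395712) measured 227 and 218 (WT DP), 248 and 251 (WT SP), 259 and 253 (KO DP), and 248 and 236 (OE SP). The highest of these 8 libraries was 1.19 times the lowest, and no comparison was called (adjusted p = 0.502, 0.517 and 0.840 with limma for WT SP against WT DP, KO DP against WT DP and OE SP against WT SP). The region at the outer Pax6 start (chromosome 2 from 105668536) measured 128 and 111 (WT DP), 118 and 106 (WT SP), 98.2 and 92.7 (KO DP), and 104 and 89.3 (OE SP). It was not called either (adjusted p = 0.386 to 0.775). The Lhx2 region at its outer start (chromosome 2 from 38339237) ran from 147 in a KO DP library to 228 in a WT SP library, and the Zic1 region (chromosome 9 from 91365054) from 126 to 184 in libraries of the same groups. Neither was called in any comparison.

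**Figure D1:**
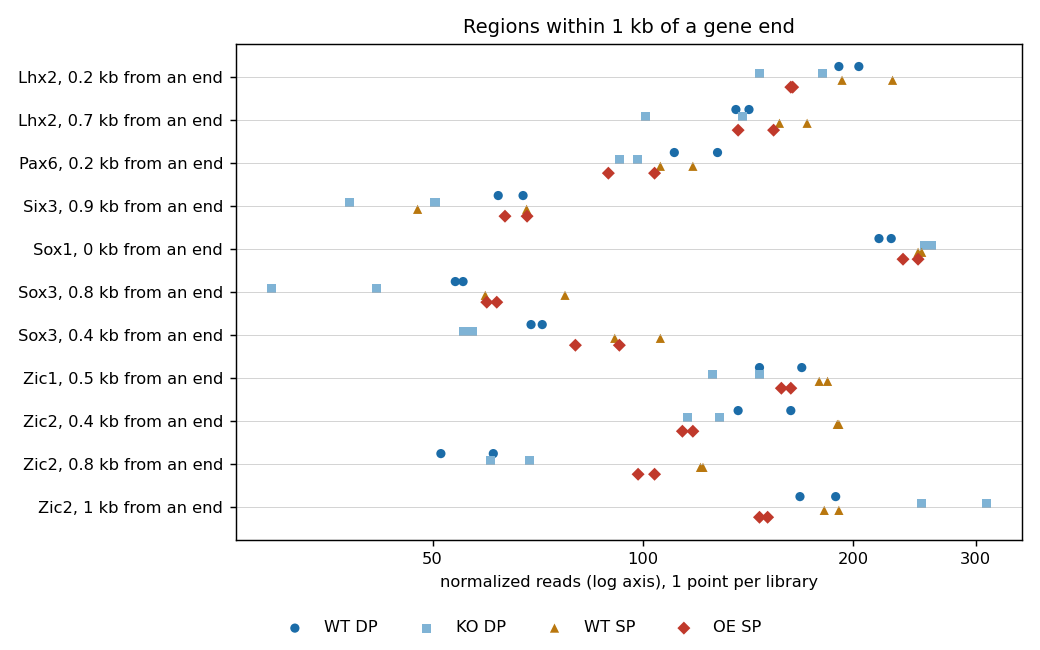
Normalized reads (x axis, log scale) of the 11 regions within 1 kb of an end of Lhx2, Pax6, Six3, Sox1, Sox3, Zic1 or Zic2 (y axis), with 1 point for each of the 8 libraries, coloured by group. Points of the Sox1 row sit between 218 and 259, while the Zic2 region 0.8 kb from an end splits into 51.4 to 68.8 in the DP libraries and 98.5 to 122 in the SP libraries.

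Across the 11 gene-end regions the mean over the 8 libraries ran from 54.8 to 243, with a median of 142. The median over all 17293 gene-end regions of the series was 235, so the ends of these genes lay below the typical gene end. Both sets hold starts and far ends of genes, so these medians do not describe starts alone. Away from the ends the order turned. The regions inside the 9 genes had a median of 65.6 and those outside 38.8, against 34.1 in each of these classes over all genes. Ncam1 and Otx2 had no region within 1 kb of an end. The region nearest to the upper-coordinate end of Ncam1 lay 2.1 kb inside it and was among the strongest of the set.

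Of the 7 genes with a gene-end region, 6 had a stronger region elsewhere, Sox3 being the exception. The strongest of all lay inside Lhx2 (chromosome 2 from 38350795), just before the inner start shown above, with 690 and 667 (WT DP), 830 and 747 (WT SP), 575 and 511 (KO DP), and 428 and 507 (OE SP). A region 1.1 kb below Zic2 (chromosome 14 from 122474063) held 488 to 654 in the 8 libraries. A region 3.7 kb below Sox1 (chromosome 8 from 12391596) held 288 to 522, and both of these were called in no comparison. The region over the start of Zic1 was assigned to its neighbour Zic4, another zinc-finger gene, and measured 56.2 to 85.4 in the 8 libraries with no call.

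In wild-type cells the loci were compared between the FLK1+ fractions without and with PDGFRalpha. A minority of the regions differed, and most of those that did had lower signal in WT SP. With limma and Benjamini-Hochberg adjustment over the 167573 regions tested, calling at an adjusted p below 0.05, 19 of the 167 regions fell and 4 rose. The shares were 11.4% lower and 2.40% higher, against 8.12% and 6.20% of all regions tested. The median log2 change was -0.07, which lay -0.17 from that of all regions. The falls were 9 regions of Ncam1, 4 of Lhx2, 2 each of Sox1 and Sox3, and 1 each of Pax6 and Six3. The rises were 1 region each of Sox1, Zic2, Six3 and Ncam1, and no region of Zic1 or Otx2 was called.

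Ncam1 carried the largest fall on the log2(value + 5) scale. A region inside the gene, 86.2 kb from its nearer end (chromosome 9 from 49588093 to 49588493), measured 68.9 and 74.6 (WT DP), 84.8 and 76.1 (KO DP), 13.2 and 8.92 (WT SP), and 9.48 and 3.94 (OE SP). The DP libraries of both lines thus lay above all SP libraries. In WT SP it was 6.48-fold lower than in WT DP (log2 change -2.27 on the log2(value + 5) scale, SE 0.27, adjusted p = 0.000538). A second region inside Ncam1 (chromosome 9 from 49617690) fell from 142 and 160 in WT DP to 50.9 and 54.5 in WT SP (-1.43, SE 0.20, adjusted p = 0.00108). It measured 85.6 and 89.1 in KO DP, between those groups, and 14.6 and 11.8 in OE SP. These calls held under every alternative analysis run.

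Distal regions of the transcription factor genes moved as well. A strong region 46.5 kb above Sox1 (chromosome 8 from 12445876 to 12446276) fell from 578 and 538 in WT DP to 263 and 249 in WT SP (-1.11, SE 0.19, adjusted p = 0.00353). KO DP stayed at 577 and 575 while OE SP held 64.9 and 102, so this region was lowest in OE SP and did not overlap between the DP and SP groups. Regions 18 kb and 5.4 kb below Lhx2 fell by 1.24 and 1.17 (log2), a region 55.4 kb below Pax6 by 1.06, and regions near Sox3 by 1.18 and 0.95. Near Six3, a region 35.1 kb below the gene fell by 0.86 and another at 49.3 kb (chromosome 17 from 85564103) rose from 29.1 and 32.3 to 74.3 and 81.3 (1.21, SE 0.24, adjusted p = 0.00604).
By class, 1 of 11 gene-end regions was called (against 5.05% of gene ends), 11 of 62 inside the genes (against 14.5%) and 11 of 94 outside (against 15.1%).

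The gene-end region called was in Zic2, 0.8 kb from an end (chromosome 14 from 122476026). It rose from 51.4 and 61.1 in WT DP to 121 and 122 in WT SP (1.05, SE 0.19, adjusted p = 0.00391). Over the alternatives, among them fits without 1 library, the change of this Zic2 region ran from 0.84 to 1.16. Of the 12 regions named for this comparison, 10 lost the call at least once. Fits without 1 library left 1 library in a group, so counts of calls from them are not given.

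The next comparison set the line without Etv2 against wild type within the PDGFRalpha+FLK1+ gate. Very few regions of these genes were called in the main fit. With limma, 4 of the 167 regions fell (2.40%, against 2.21% of all regions tested) and 0 rose (against 1.72%; 3.92% in either direction). At an unadjusted p below 0.05, 22 were lower (against 11.9% of all regions tested) and 5 higher (against 7.45%). edgeR on recovered reads called 2 higher and 6 lower (against 3.62% and 2.78% of all regions tested). DESeq2 called 0 and 1 (against 1.23% and 0.819%). Scaling changed the split, with 4 rises and 5 falls after rescaling on the 10000 highest regions (against 3.12% and 2.64%). Fitting just KO DP and WT DP gave more calls each way at these genes than the main fit. So it did over all regions tested, where 8.89% were higher and 13.1% lower. The median log2 change was -0.19, which lay -0.12 from that of all regions.

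All 4 called regions had lower signal in KO DP, and none of the 11 gene-end regions was called (against 3.42% of gene ends). Inside the genes 1 of 62 was called (against 3.80%) and outside them 3 of 94 (against 4.23%). The largest change lay 54.3 kb above Sox1 (chromosome 8 from 12453622 to 12454022), where WT DP measured 57.3 and 65.6 and KO DP 16 and 16.6 (-1.64, SE 0.25, adjusted p = 0.00348). The same region measured 18.3 and 21.8 in WT SP and 9.48 and 6.57 in OE SP, so WT DP alone was high there. A region 31.1 kb above Sox1 (chromosome 8 from 12430457) fell from 156 and 143 to 89.8 and 72.5 (-0.85, SE 0.18, adjusted p = 0.0250), while WT SP held 187 and 165. Of the 258 regions of other genes within 1 Mb of Sox1, 7 were called higher in KO DP and 0 lower.

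The other falls lay 2.3 kb from Zic1 (chromosome 9 from 91355589), from 91.2 and 79.0 to 43.7 and 34.5 (-1.04, SE 0.22, adjusted p = 0.0213), and inside Lhx2 (chromosome 2 from 38356661), from 116 and 110 to 63.8 and 58.2 (-0.84, SE 0.19, adjusted p = 0.0284). None of the 4 calls held under all alternatives. Over the alternatives the change ran from -1.19 to -0.89 at the Zic1 region and from -0.9 to -0.77 at the Lhx2 region. At the Sox1 regions it ran from -1.85 to -1.55 (54.3 kb above the gene) and from -0.99 to -0.7 (31.1 kb above).

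The last comparison set cells with induced Etv2 against wild type within the PDGFRalpha-FLK1+ gate. Many regions of these genes were called, in both directions, at shares near those of all regions (47.9% against 48.5%). Of the 167 regions 57 fell (34.1%, against 31.9% of all regions tested) and 23 rose (13.8%, against 16.6%). The median log2 change was -0.28 and that of all regions -0.22, so the neural loci lay -0.06 from the whole. After median-of-ratios rescaling, which brought the median of all regions to -0.00, the counts were 44 falls (against 25.4% of all regions tested) and 31 rises (against 23.3%). Each of the 9 genes had at least 1 called region. Sox3 and Zic2 had falls only, Zic1 had 1 rise only, and the other 6 had both. The balance within a gene moved with the scaling, from 3 rises and 10 falls to 4 and 4 for Lhx2 and from 4 and 2 to 7 and 2 for Pax6 after median-of-ratios rescaling.

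**Figure D2:**
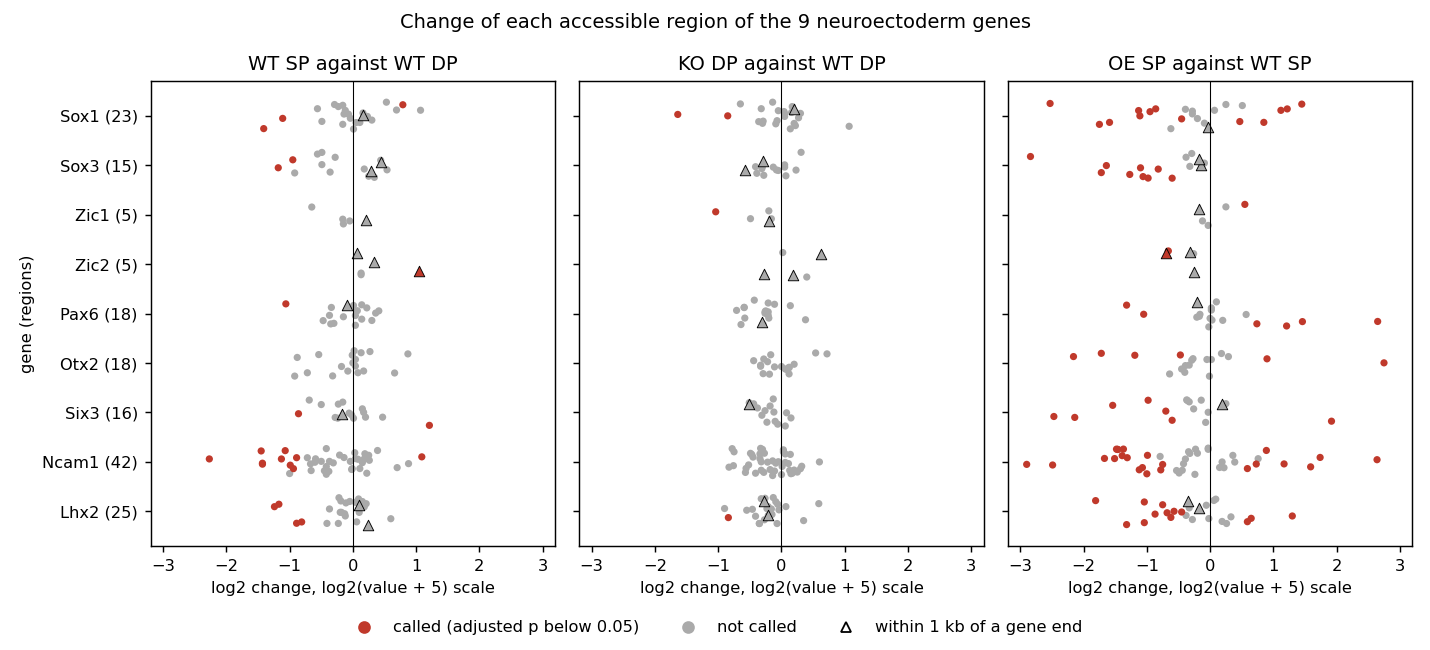
Log2 change on the log2(value + 5) scale (x axis) of each of the 167 regions, by gene (y axis, number of regions in brackets), in the 3 comparisons. Red points were called, grey points were not, and triangles are regions within 1 kb of a gene end. Red points are few for KO DP (4) and many for OE SP (80), where they lie on both sides of 0 but hold 1 of the 11 triangles.

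The called regions lay mostly away from the gene ends. Of the 11 gene-end regions 1 was called, against 27.4% of all gene-end regions. Inside the genes 29 of 62 regions were called, against 50.0% of such regions over all genes, and outside them 50 of 94, against 50.1%. The difference between these classes was not tested. The gene-end region called lay in Zic2 (chromosome 14 from 122475546) and fell from 191 and 190 in WT SP to 114 and 118 in OE SP (-0.69, SE 0.17, adjusted p = 0.00552).

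Ncam1 held the largest fall on the log2(value + 5) scale and one of the 3 largest rises. The fall was a region inside the gene, 39.7 kb from its nearer end (chromosome 9 from 49759499 to 49759899). It went from 79.4 and 98.1 in WT SP to 10.2 and 5.26 in OE SP, 11.5-fold (-2.90, SE 0.22, adjusted p = 5.25e-06), and held 254 and 239 in WT DP. The rise lay inside the gene 22.5 kb from the other end (chromosome 9 from 49524414 to 49524814), from 18.3 and 13.9 in WT SP to 113 and 139 in OE SP (2.64, SE 0.24, adjusted p = 1.06e-05). The groups did not overlap at either region, and WT DP (23.3 and 18.9) and KO DP (15.1 and 17.8) were as low as WT SP at the region that rose. In all, 16 regions of Ncam1 fell and 7 rose. The strongest region of the gene, 2.1 kb inside its upper-coordinate end, fell from 533 and 456 to 195 and 276 (-1.07, SE 0.18, adjusted p = 0.000442).

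**Figure D3:**
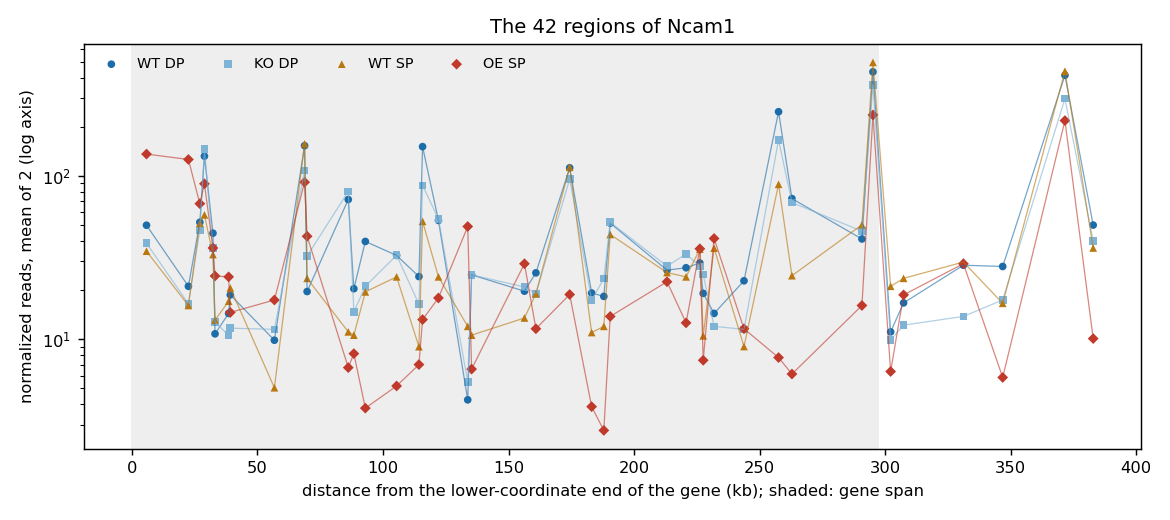
Mean normalized reads of 2 libraries (y axis, log scale) at the 42 regions of Ncam1, by distance from the lower-coordinate end of the gene in kb (x axis). Lines only join the points of a group, and the gene span is shaded. OE SP points lie below those of WT SP at most regions of the gene, and above all groups at the region 22.5 kb from its lower-coordinate end.

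At Sox3 the called changes in OE SP were all falls, 9 of its 15 regions. All 15 log2 changes were negative on the deposited scale, against 12 after either rescaling and 10 with edgeR and DESeq2, which called 6 and 5 lower and 0 higher. The region 47.7 kb above the gene (chromosome X from 60940952 to 60941352) measured 76.7 and 74.6 (WT DP), 57.9 and 65.4 (KO DP), 58.0 and 57.5 (WT SP), and 3.65 and 3.94 (OE SP). It was 15.2-fold lower in OE SP than in WT SP (-2.84, SE 0.21, adjusted p = 4.82e-06). A weaker region 55.2 kb below the gene fell from 24.4 and 18.8 to 2.19 and 3.94 (-1.72, SE 0.29, adjusted p = 0.000453). The gene-end regions of Sox3 were not called, with 106 and 91.2 in WT SP against 92.6 and 80.1 in OE SP at the stronger one. Within 1 Mb of Sox3 lay 19 regions of other genes, with a median log2 change of 0.01, 5 rises and 4 falls.

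Single regions near Otx2 and Pax6 rose from low signal. The region 50.3 kb above Otx2, which specifies the forebrain and midbrain (chromosome 14 from 48717728 to 48718128), measured 4.85 to 8.14 in the 6 libraries of the other groups and 68.6 and 84.1 in OE SP. The change was 10.8-fold (2.75, SE 0.27, adjusted p = 1.48e-05). The region 59.9 kb below Pax6 (chromosome 2 from 105608748 to 105609148) held 7.56 to 21.4 in those 6 libraries and 135 and 142 in OE SP (2.65, SE 0.25, adjusted p = 1.18e-05). A Pax6 region only a few kb away, 55.4 kb below the gene, fell in the same comparison from 40.7 and 41.6 to 15.3 and 11.8 (-1.32, SE 0.22, adjusted p = 0.000430). These neighbouring regions went opposite ways.

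**Figure D4:**
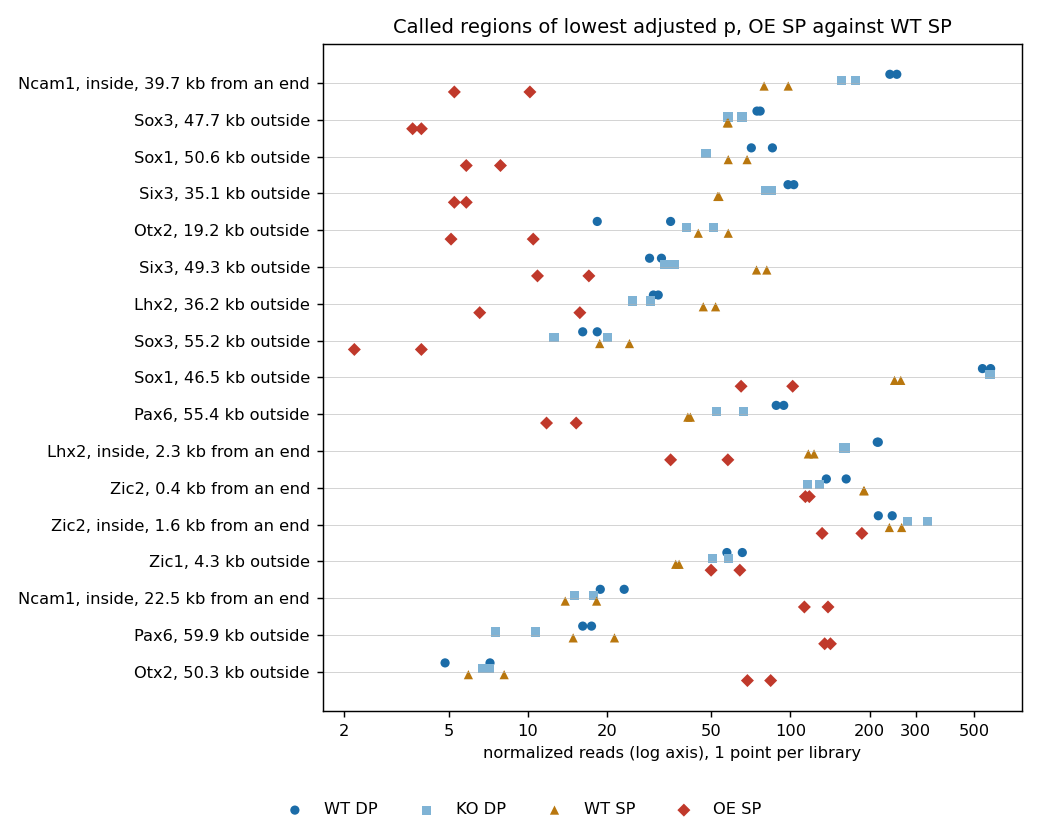
Normalized reads (x axis, log scale) of the called regions of lowest adjusted p, up to 2 for each gene, in OE SP against WT SP, ordered by log2 change (y axis), with 1 point per library. The OE SP points of the top row are at 10.2 and 5.26 against 79.4 and 98.1 in WT SP, and those of the bottom row at 68.6 and 84.1 against 8.14 and 5.95.

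Falls at the remaining genes were also mostly distal. A region 50.6 kb below Sox1 (chromosome 8 from 12344675) fell from 58.0 and 68.4 to 5.84 and 7.88 (-2.53, SE 0.22, adjusted p = 8.99e-06), and the strong region 46.5 kb above it fell from 263 and 249 to 64.9 and 102 (-1.59). Near Six3, the region at 35.1 kb fell from 52.9 and 53.5 to 5.84 and 5.26 (-2.47, SE 0.20, adjusted p = 6.34e-06). The region at 49.3 kb, which had risen in WT SP against WT DP, fell to 10.9 and 17.1 (-2.14). Near Otx2 a region 19.2 kb below the gene fell by 2.16 and the one just before its innermost start, shown above, from 55.0 and 46.6 to 19.7 and 6.57 (-1.72, SE 0.32, adjusted p = 0.000904). Lhx2 had falls 36.2 kb above the gene (-1.81), 2.3 kb inside an end (-1.32) and just before its inner start (-0.75, adjusted p = 0.00140).

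Zic1 and Zic2, with 5 regions each, had the fewest called regions. The 1 rise at Zic1, 4.3 kb below the gene, went from 36.6 and 37.7 to 64.2 and 49.9 (0.55, SE 0.21, adjusted p = 0.0495) and lost its call under 7 alternatives. The second fall of Zic2, inside the gene, was -0.66 (adjusted p = 0.0136). Of the 19 regions named and called in this comparison, 16 held under every alternative. The exceptions were this Zic1 region and both Zic2 regions. Over the alternatives the change ran from 0.38 to 0.91 at this Zic1 region. At the Zic2 regions it ran from -0.72 to -0.46 (gene end) and from -0.9 to -0.42 (inside).

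Some regions were called in more than 1 comparison. Of the 19 regions that fell between WT DP and WT SP, 11 fell again between WT SP and OE SP and 1 rose. Over all regions tested, 31.9% fell and 16.6% rose between WT SP and OE SP. How many of all regions that fell between WT DP and WT SP fell again was not counted. Both comparisons share the WT SP libraries, so the counts of 11 and 1 are a description.

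Signal was also summed over the regions of each gene, giving 1 value per gene and library. In OE SP 5 of the 9 genes were called lower than in WT SP over all 18554 genes with a region (limma), against 24.4% of genes, and 0 were called higher, against 9.45% (33.8% in either direction). Sox3 fell from 633.1 and 556.1 in WT SP to 365.5 and 332.4 in OE SP (log2 change -0.76, SE 0.12, adjusted p = 0.000131). It was the 1 call that held under all alternatives. Ncam1 fell from 2145 and 2212 to 1371 and 1736 (-0.50, SE 0.14, adjusted p = 0.0115). Lhx2 (-0.40), Zic2 (-0.39) and Six3 (-0.38) were called with adjusted p of 0.0308, 0.0272 and 0.0305. Pax6 had 2090 and 1976 in WT SP and 2127 and 2205 in OE SP (0.09, adjusted p = 0.629). After median-of-ratios rescaling 2 genes were lower (against 15.9% of all genes) and 1, Pax6, was higher (against 30.8%).

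**Figure D5:**
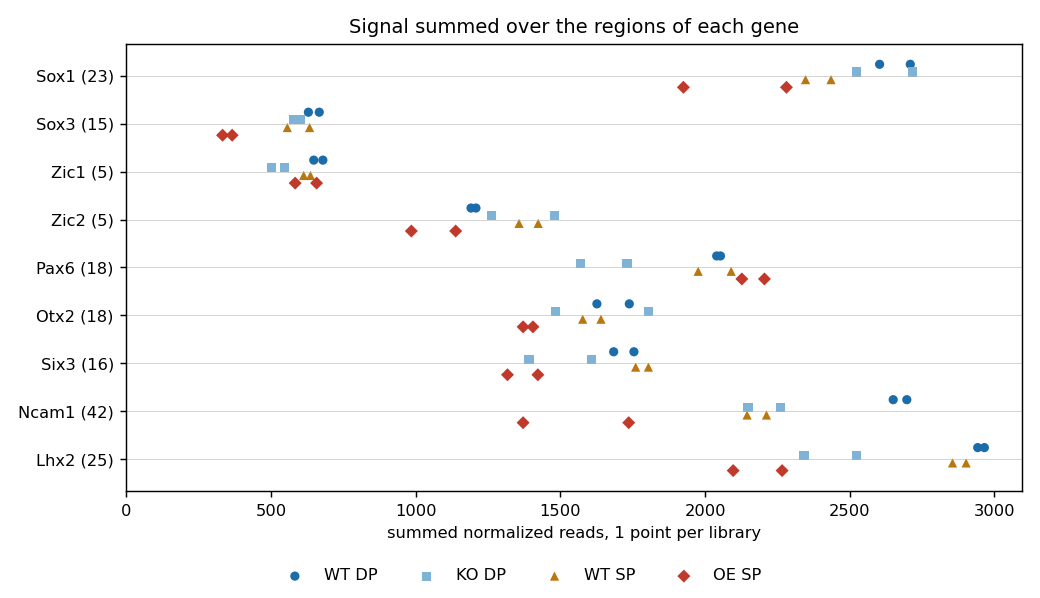
Normalized reads summed over the regions of each gene (x axis, from 0) for the 9 genes (y axis, number of regions in brackets), with 1 point per library. OE SP points lie left of the WT SP points for Sox3 (332.4 and 365.5 against 556.1 and 633.1) and Ncam1, and right of them for Pax6.

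On summed signal 0 genes were called in WT SP against WT DP (against 4.42% of genes higher, 2.92% lower and 7.34% in either direction) and 0 in KO DP against WT DP (against 2.10%, 5.23% and 7.33%) with limma. At an unadjusted p below 0.05 the counts were 0, and 2 lower in KO DP. Those 2 were Zic1, with 647.5 and 679 in WT DP and 546.6 and 502.7 in KO DP (-0.34, SE 0.12, adjusted p = 0.104), and Pax6 (-0.31, SE 0.13, adjusted p = 0.162). Over the alternatives, the summed change in OE SP against WT SP ran from -0.85 to -0.52 for Sox3 and -0.67 to -0.25 for Ncam1. For Lhx2, Zic2 and Six3 the ranges were -0.46 to -0.15, -0.49 to -0.15 and -0.43 to -0.13.

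The mean centred log2 sum of the 9 genes was 0.13 and 0.15 (WT DP), 0.12 and 0.06 (WT SP), 0.06 and -0.09 (KO DP), and -0.26 and -0.17 (OE SP). Both OE SP libraries lay below all others on the deposited scale. The log2 median-of-ratios factors were -0.1971 and -0.0163 (OE SP) and 0.1418 and 0.1374 (WT SP), so this order depends on the scaling. Among 9497 other genes with at least 5 regions, the profiles most like it over the 8 libraries were those of Mrm1 and Sertm1 (Pearson r = 0.987 each) and Ston1 (0.986). An r above 0.9 was reached by 6.64% of the genes, and all sums share the depth and scaling of a library.

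For other genes of the neural plate and early brain, a list of 38 genes, among them Sox2, Pax3 and Hes5, held 530 regions, of which 529 were tested. In WT SP against WT DP 59 fell and 8 rose (11.2% and 1.51%, against 8.12% and 6.20% of all regions tested). The median log2 change was -0.05. In KO DP 10 fell and 6 rose (1.89% and 1.13%, against 2.21% and 1.72%). In OE SP against WT SP 165 fell and 48 rose (31.2% and 9.07%, against 31.9% and 16.6%). The median there was -0.25 against -0.22 for all regions. Of the 38 genes 2 had no called region in that comparison, where 48.5% of all regions tested were called.

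The libraries held 12477601 to 18853733 reads in regions. Replicates correlated at 0.975 to 0.978 on the log2 scale in 3 groups and at 0.937 in OE SP, where the chi-square of the recovered reads was 4.34 per degree of freedom against 1.15 to 1.22 elsewhere. The region inside Etv2 (chromosome 7 from 30634628) measured 425 to 645 in the WT and OE libraries and 0.84 and 0 in KO DP. Regions of the sort markers were open in all groups, with summed signal of 3637 to 5417 for Kdr and 1244 to 2369 for Pdgfra. Lineage markers were compared between OE SP and WT SP, where 16.6% of all regions tested rose and 31.9% fell. The 7 endothelial genes had 68 rises and 37 falls among 192 regions (35.4% and 19.3%). Their sums were 11040 and 11130 in WT SP and 16240 and 22600 in OE SP. The 5 cardiac genes had 58 falls and 5 rises among 97 regions (59.8% and 5.15%), with sums of 12390 and 12740 against 5904 and 8984. The 5 paraxial and streak genes had 14 falls among 19 (73.7%), with sums of 4037 and 4143 against 1439 and 1935. The 5 blood genes had 21 rises and 41 falls among 89 regions (23.6% and 46.1%), with sums that overlapped (10580 and 10750 against 7876 and 11770). Runx1 held 37 of these falls and 9 of the rises, in 66 regions. Tal1 had 6 rises and 1 fall, Ptprc 3 and 1, Itga2b 2 and 1, and Gata1 1 and 1. The 4 pluripotency genes had 13 rises and 18 falls among 62 regions, so 50.0% were called, near the 48.5% of all regions. The part of cell composition in the changes at the neural loci was not tested. In sorted bulk cells, fewer cells with an open region and less opening per cell cannot be told apart.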

How the data were processed

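The authors deposited 1 table of normalized signal per region and library. The submitters' processing notes name Bowtie2, DiffBind 3.14.1, MACS2 and build mm10. For their roles, the scaling, read shifts and duplicate handling, the sources used here say nothing. Values of each library were multiples of 1 step (tolerance 0.01 reads), so whole reads were recovered for edgeR 4.0.16 and DESeq2 1.42.0, used as alternatives only. Scaling sets the balance of rises and falls, so counts are also given under other scalings.

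Regions (401 to 1126 bp) were assigned by midpoint to the nearest protein-coding RefSeq gene span within 100 kb. Exons were not used. Regions in several spans went to the shortest. The main test was limma 3.58.1 (R 4.3.3, empirical Bayes trend) on log2(value + 5), with all 4 groups in 1 fit with 4 residual degrees of freedom, for 167573 regions with a mean of at least 10. Gene sums were fitted likewise without a filter. Calls used a two-sided Benjamini-Hochberg adjusted p below 0.05 over all features. The fit was tested on simulated data. These had the same spread in every group and few changed regions, so the test does not cover the wider spread of OE SP. Named regions are each gene's strongest gene-end region, its strongest region and up to 2 called regions per comparison by lowest adjusted p; the Otx2 region before an inner start and the Zic4 region were added after their values were seen. Genes and lists were chosen with earlier results of these data known.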

Additional observations from a re-analysis of the deposited data

How the results depend on the processing

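All 107 region calls kept their direction under every alternative run for their comparison, as did the 5 gene sums. Counts of calls depended on the fit, at these genes and over all regions, and the causes were not tested beyond what each alternative changes (fewer samples or another scaling). In OE SP against WT SP, 31.9% of all regions tested fell in the main fit and 17.2% with DESeq2. In WT SP against WT DP, 4 rises became 2 with DESeq2 and 19 when the fit held the compared groups alone, and 19 falls became 33 with the compared groups alone. Of all regions tested, 2.78% rose with DESeq2, and 22.4% rose and 15.5% fell with the compared groups alone. Leaving out 1 library gave 0 to 1 rises and 5 to 7 falls. Gene sums called lower went from 0 to 2 with median-of-ratios rescaling, 3 with rescaling on the 10000 highest regions and 2 with the compared groups alone, which also gave 1 higher. The shares of all genes were 8.24%, 14.8% and 10.9% lower, and 49.0% higher with the compared groups alone. In KO DP against WT DP, 0 rises became 1, 4, 2 and 6 with median-of-ratios rescaling, rescaling on the 10000 highest regions, edgeR and the compared groups alone, and 4 falls became 1 with DESeq2 and 27 with the compared groups alone. The shares of all regions tested that rose were 2.58%, 3.12%, 3.62% and 8.89% in that order. Falls made up 0.819% of all regions with DESeq2 and 13.1% with the compared groups alone. Leaving out 1 library turned the direction of none of the 4 called regions. Gene sums went from 0 higher and 0 lower to 1 and 1 under both rescalings and 1 and 5 with the compared groups alone. Of all genes, 5.88% and 7.97% were higher and 8.14% and 8.28% lower under the rescalings. With the compared groups alone the shares were 8.77% and 27.0%. In OE SP against WT SP, 57 falls became 32 with DESeq2, and leaving out 1 library gave 14 to 24 rises and 42 to 64 falls. The 5 gene sums called lower became 2, 3 and 1 with median-of-ratios rescaling, rescaling on the 10000 highest regions and the compared groups alone. Both rescalings called 1 higher. Of all genes, 15.9%, 18.8% and 15.5% were lower in OE SP under both rescalings and the compared groups alone, and the rescalings called 30.8% and 27.7% higher. Same-numbered libraries of different groups did not deviate together (r = -0.00382 to 0.056), so no pairing by number was seen. These values cannot exclude that such libraries were prepared together. The names of the KO DP libraries carry other numbers than those of the other groups. A replicate block gave 5 rises and 20 falls, 0 and 4, and 21 and 53 in the 3 comparisons, and 3 genes lower in OE SP. With the block, 6.19% of all regions tested rose and 7.90% fell, then 1.62% and 1.85%, and 16.4% and 31.4%. At a median of 27 to 42 reads per region, small changes at weak distal regions may be missed with 2 libraries per group.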
